A study of Mus musculus with 16 samples.

Results

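Testes with germ cells were followed through 4 days of mouse development, at embryonic days (E) 12.5, 13.5, 14.5 and 15.5. The samples are the male gonads labelled heterozygous for Nanos3 (Nanos3+/-), 1 for each day. They make up 4 of the 16 samples of the series and were chosen by the sex, genotype and embryonic day in the labels. They were set against 4 male gonads labelled knockout (Nanos3-/-) and 4 female gonads labelled heterozygous (Nanos3+/-), again 1 for each day. By its title, every sample combines replicates 1 and 2 of whole gonads, so each day has a single value and the days serve as replicates of a trend (n = 4 per group). The heterozygotes carry the mutant allele too, and gonads of wild type embryos were not analysed here.

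In the mouse fetal testis, Sertoli cells enclose the germ cells in cords, and fetal Leydig cells between the cords make androgens. During these days the male germ cells stop dividing, switch off pluripotency genes and turn on genes of the piRNA pathway and of DNA methylation, while germ cells of the ovary enter meiosis. Primordial germ cells die without the RNA-binding protein Nanos3, and the knockout gonads serve as testes from which most or all germ cells are missing.

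Expression was measured on Agilent arrays with a single colour. Values are log2 ratios of a probe's signal to its typical signal over the series, so they compare samples within a gene and never levels between genes. The change over time is given as a slope in log2 units per day ± the standard error of the limma fit, and a gene is said to rise or fall only where the slope passed the test (p under 0.05 after Benjamini-Hochberg adjustment over all 16580 genes tested). Of the 41174 probes used, between 10546 and 10631 were at or below the common detection limit in the 4 male heterozygous samples.

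The labels were checked on marker genes. Nanos3 itself had log2 ratios of 1.69, 3.49, 2.98 and 0.92 from E12.5 to E15.5 in male heterozygotes, against -0.05, 0.03, -0.40 and -0.71 in male knockouts. Ddx4, an RNA helicase of germ cells, was at 1.04, 2.17, 2.59 and 2.19 in male heterozygotes, against -5.11, -5.55, -5.14 and -5.04 in male knockouts. The groups did not overlap for either gene. Sox9, the transcription factor of Sertoli cells, ranged between 0.73 and 1.44 in male heterozygotes, against -2.18 to -1.52 in female heterozygotes. Foxl2, a transcription factor of pre-granulosa cells, stayed between -1.56 and -0.25 in male heterozygotes, against 0.44 to 1.90 in female heterozygotes. Xist, the RNA of the inactive X chromosome, was at most -4.43 in male heterozygotes and at least 1.48 in female heterozygotes.

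The change over the 4 days reached 2735 genes, of which 1771 rose (10.7% of all genes tested) and 964 fell (5.81%). An unadjusted p under 0.05 was reached by 33.7% of genes. A fitted change of at least 2-fold over the 3 days that separate the outer samples was seen for 1695 of the rising (10.2% of all genes) and 863 of the falling genes (5.21%). The median slope over all genes was 0.02. Counts on the gene lists below are to be set against the shares of 10.7% rising and 5.81% falling. Among the rising genes, 1251 went up on all 3 steps between neighbouring days, and 1531 were highest at E15.5. Among the falling genes, 537 went down on all 3 steps, and 652 were lowest at E15.5. How many genes rose for each that fell depended on the scaling of the arrays: with the arrays as deposited, 2956 of 3234 called genes rose, and after quantile normalization 1140 of 2200 rose. The count was 490 without the E12.5 sample and 971 without the E15.5 sample, against 2072 and 2093 without E13.5 and E14.5.

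The widest step lay in the middle of the series. Between E13.5 and E14.5, 3187 genes differed by at least 2-fold in male heterozygotes, against 1292 between E12.5 and E13.5 and 1191 between E14.5 and E15.5. For 76.9% of the falling and 55.0% of the rising genes the largest change fell on this middle step, as it did for 53.3% of all genes tested. The same step was the widest in male knockouts, with 2373 genes against 850 and 428 on the outer steps. In female heterozygotes the first step was nearly as wide as the middle one, with 3102 genes against 3449, and the last had 789. With 1 sample per day and group, a difference between the arrays of neighbouring days and the age of the embryos cannot be told apart. A fit that gave all 4 groups a shared step between E13.5 and E14.5 left 712 genes with a slope, 584 of them rising.

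**Figure D1:**
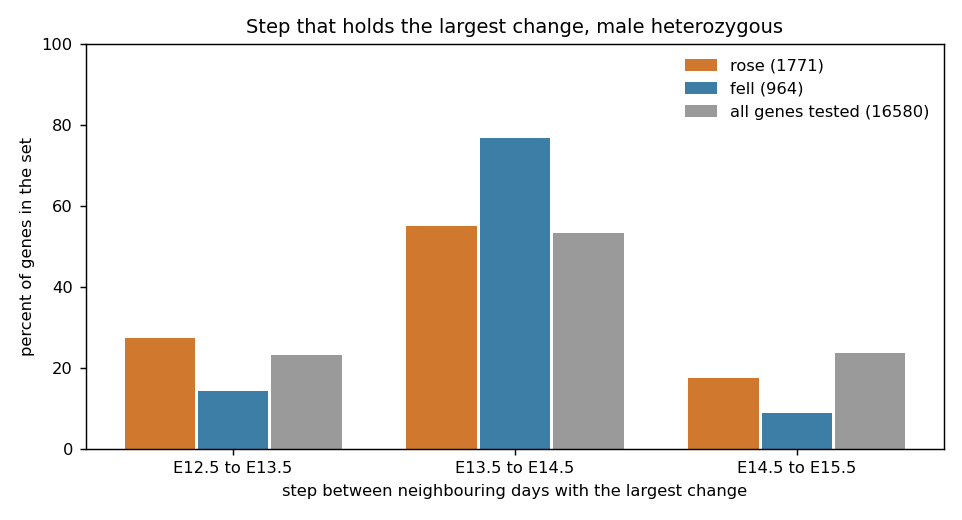
Percent of genes (vertical axis) whose largest change between neighbouring days in male heterozygous gonads fell on each of the 3 steps (horizontal axis), for the 1771 genes that rose, the 964 that fell and all 16580 tested. The middle step holds the largest change for 76.9% of the falling genes, against 53.3% of all genes.

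Dnmt3l and Tdrd9, genes of the male germ cell programme, were among the 12 steepest rises. Dnmt3l, the cofactor of the enzymes that lay down new DNA methylation, had log2 ratios of -0.01, 4.54, 7.89 and 8.94 from E12.5 to E15.5. Its slope was 3.02 ± 0.32 (adjusted p = 0.000401), a fitted rise of 531-fold over 3 days. In male knockouts Dnmt3l stayed between -0.03 and 0.62 over the same days, and in female heterozygotes between -1.24 and -0.22. Tdrd9, a helicase of the piRNA pathway, was at 0.38, 3.33, 7.01 and 7.29, with a slope of 2.44 ± 0.29 (adjusted p = 0.000636). Most of the rise in Tdrd9 lay before E14.5, and the last step added 0.27. In whole gonads, more germ cells and more RNA per germ cell cannot be told apart.

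Nanos2, the RNA-binding protein that directs germ cells to the male fate, followed a different course. Its log2 ratios were 3.20, 8.23, 6.81 and 4.57, so that it peaked at E13.5 and had fallen back most of the way to its E12.5 value at E15.5. In male knockouts Nanos2 was at the detection limit on all 4 days. The slope of Nanos2 in male heterozygotes was 0.27 ± 0.55 and did not pass the test (adjusted p = 0.765). The curvature, taken as the mean of the inner days minus the mean of the outer days, was 3.64 ± 0.54, and its adjusted p was 0.266. No gene passed the limma test for curvature (0 of 16580), although 862 genes (5.2%) had an unadjusted p under 0.05, and 33 passed when genes of any signal were kept.

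**Figure D2:**
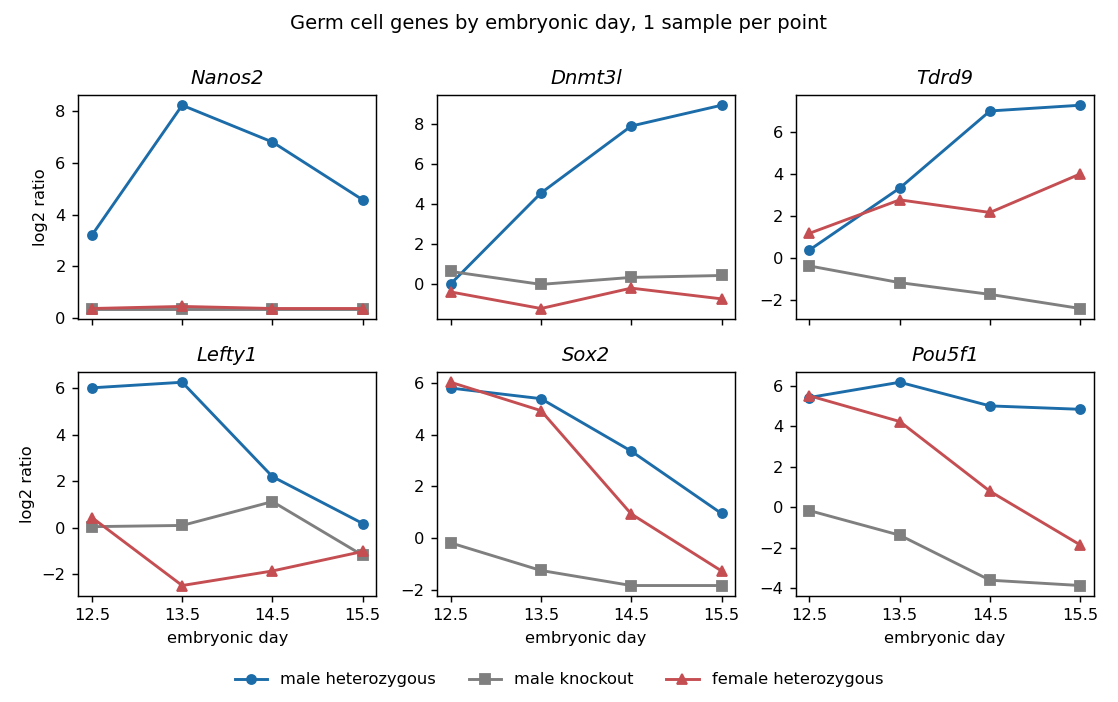
Log2 ratio (vertical axes) by embryonic day (horizontal axes) of 6 germ cell genes in male heterozygous (circles), male knockout (squares) and female heterozygous (triangles) gonads, 1 sample per point. Dnmt3l and Tdrd9 climb in male heterozygotes, Nanos2 peaks at 8.23 on E13.5, Lefty1 and Sox2 decline, and Pou5f1 stays between 4.84 and 6.17.

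Of 9 measured genes of male germ cell fate, 2 rose and 2 fell, and of 21 measured genes expressed by germ cells of both sexes, 8 rose and 2 fell. Over all genes, 10.7% rose and 5.81% fell. The median slope was 0.55 in the larger list, against 0.02 over all genes. The 8 rising genes were Tdrd1, Gtsf1, Mael, Piwil2, Ddx25, Tex101, Taf7l and Slc25a31. Tdrd1, a scaffold of the piRNA pathway, had values of 0.41, 3.21, 5.70 and 5.59 and a slope of 1.81 ± 0.25 (adjusted p = 0.00134). Gtsf1, a zinc finger protein needed in the same pathway, was at 1.15, 4.96, 6.74 and 7.02 with a slope of 1.94 ± 0.38 (adjusted p = 0.00656). Piwil2, a protein that binds piRNAs, was at 1.03, 2.37, 4.38 and 4.23 with a slope of 1.16 ± 0.16 (adjusted p = 0.00115). Mael, another piRNA factor, was at 1.14, 2.99, 4.29 and 4.60 with a slope of 1.17 ± 0.25 (adjusted p = 0.0104). All 4 were lowest at E12.5, and all 4 had gained most of their rise by E14.5. Ddx25, an RNA helicase of germ cells, was at 0.24, 1.34, 2.94 and 3.32 with a slope of 1.08 ± 0.13 (adjusted p = 0.00076). Ddx4 was not among the rising genes (0.39 ± 0.27, adjusted p = 0.331). Without the E12.5 sample the slope was 1.19 for Tdrd1, 1.03 for Gtsf1, 0.81 for Tex101, 0.49 for Taf7l and 0.25 for Slc25a31, and these 5 slopes no longer passed the test.

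The genes that fell among germ cell factors had their main step between E13.5 and E14.5. Dazl, an RNA-binding protein that readies germ cells for their sexual fate, was at 3.49, 3.72, 0.62 and 0.65, with a slope of -1.16 ± 0.34 (adjusted p = 0.038). Sohlh2, a transcription factor of germ cells, was at 3.24, 3.01, 0.15 and -0.24, with a slope of -1.33 ± 0.24 (adjusted p = 0.00454). Both genes were thus high on the first pair of days and low on the second.

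The promoters of the rising germ cell genes were read to show what they share. Of the 10 genes of these lists that rose, 9 had a promoter in the RefSeq table (build GRCm38.p6, the bases around the start site), and 7 of these 9 held the palindrome CACGTG, the E-box, in at least 1 promoter. The same letters were found in 8.09% of all 27025 genes in that table, and in 4 of 15 genes with a promoter among the measured members of both lists that did not rise. The motif was chosen after its matches were seen, and a match is a description of the letters and not of binding. The median number of CpG sites per promoter was 17 in the rising genes, and it was also 17 in the members that did not rise and 7 over all promoters. Promoters of 4 of the 7 genes are shown 5′ to 3′ with CACGTG in capitals. They lie at chr12:111971309-111971608 on the plus strand (Tdrd9), chr1:166238695-166238994 on the minus strand (Mael), chr19:56825959-56826258 on the plus strand (Tdrd1) and chrX:134476441-134476740 on the minus strand (Taf7l, a germ cell form of a general transcription factor).
Tdrd9: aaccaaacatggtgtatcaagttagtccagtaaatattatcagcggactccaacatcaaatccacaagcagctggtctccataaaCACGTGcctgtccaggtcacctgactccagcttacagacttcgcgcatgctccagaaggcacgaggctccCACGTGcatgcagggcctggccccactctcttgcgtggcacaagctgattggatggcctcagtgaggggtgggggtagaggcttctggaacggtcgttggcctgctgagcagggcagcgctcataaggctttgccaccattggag
Mael: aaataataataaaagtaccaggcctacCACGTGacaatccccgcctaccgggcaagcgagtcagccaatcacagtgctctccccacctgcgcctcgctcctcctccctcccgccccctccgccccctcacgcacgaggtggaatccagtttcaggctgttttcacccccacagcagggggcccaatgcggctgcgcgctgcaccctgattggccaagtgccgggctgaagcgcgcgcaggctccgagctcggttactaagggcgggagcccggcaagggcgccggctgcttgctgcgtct
Tdrd1: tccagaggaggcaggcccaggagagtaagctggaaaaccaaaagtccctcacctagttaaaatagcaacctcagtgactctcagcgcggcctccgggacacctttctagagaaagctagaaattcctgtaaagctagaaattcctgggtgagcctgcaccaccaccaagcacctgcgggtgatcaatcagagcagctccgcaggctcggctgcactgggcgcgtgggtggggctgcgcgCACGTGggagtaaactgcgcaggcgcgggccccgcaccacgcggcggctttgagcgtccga
Taf7l: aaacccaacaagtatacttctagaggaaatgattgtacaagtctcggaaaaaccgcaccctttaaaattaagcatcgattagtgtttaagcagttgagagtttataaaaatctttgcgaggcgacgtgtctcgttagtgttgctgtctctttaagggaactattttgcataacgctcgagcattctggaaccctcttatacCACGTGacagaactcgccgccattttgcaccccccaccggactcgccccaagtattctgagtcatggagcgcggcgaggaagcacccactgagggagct
Tdrd9 held the letters at 165 and 95 bases before the start site, Mael at 223, Taf7l at 49 and Tdrd1 at 11.

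Of 12 genes of DNA methylation and chromatin in the germline, 2 rose and 1 fell, where 10.7% of all genes rose and 5.81% fell. Dnmt3a, the enzyme that methylates new sites, was at -0.06, 0.47, 1.63 and 1.71, with a slope of 0.65 ± 0.13 (adjusted p = 0.00658). Morc1, a chromatin protein that silences transposons in the male germline, was at 2.19, 4.14, 5.64 and 5.59, with a slope of 1.17 ± 0.26 (adjusted p = 0.0111, and 0.343 without the E12.5 sample). Tet1, an enzyme that oxidises methylated cytosine, fell and had values of 1.39, 0.96, -0.29 and -0.36 (slope -0.65 ± 0.17, adjusted p = 0.0243). Dnmt3b, which methylates new sites as Dnmt3a does, had a slope of -0.23 ± 0.08 (adjusted p = 0.059).

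The 2 genes that fell on the list of male germ cell fate were Lefty1 and Nodal. Lefty1, a secreted inhibitor of Nodal, was at 6.03, 6.27, 2.20 and 0.17, with a slope of -2.16 ± 0.45 (adjusted p = 0.00927). Nodal, the ligand, was at 3.27, 3.90, 2.21 and 1.59, with a slope of -0.67 ± 0.19 (adjusted p = 0.0321) that was -1.16 without the E12.5 sample. Otx2, a transcription factor of the early embryo that is on none of the lists and was among the 12 steepest declines, was at 4.63 and 5.38 on the first pair of days and at 1.13 at E14.5, and it had reached the detection limit at E15.5 (slope -1.70 ± 0.32, adjusted p = 0.00518). All 3 were higher at E13.5 than at E12.5 and lowest at E15.5. Tdgf1, the co-receptor of Nodal, had values of 1.96, 1.39, 0.25 and 0.23 (slope -0.64 ± 0.23, adjusted p = 0.076). Lefty2, the other inhibitor, was between 3.90 and 5.55 on all days, and its slope of -0.52 ± 0.34 did not pass the test (adjusted p = 0.304). In male knockouts Lefty2 was at 0.40, 3.57, 4.31 and 4.64, lower than in male heterozygotes on the first pair of days and higher on the second.

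Of 16 pluripotency and early germ cell genes, Nanog, Sox2, Dppa5a, Zfp42 and Prdm1 fell, none rose and 11 did not pass the test, and the median slope of the list was -0.51. Sox2 was at 5.81, 5.4, 3.37 and 0.95, with a slope of -1.66 ± 0.32 (adjusted p = 0.00619). Nanog was at 3.92, 3.97, 1.90 and 0.64, with a slope of -1.19 ± 0.23 (adjusted p = 0.00589). Nanog was level up to E13.5, while Sox2 was lower on each later day. Dppa5a, an RNA-binding protein of pluripotent cells, was at 4.85, 4.79, 2.46 and 0.52, and Zfp42, a zinc finger protein of the same cells, at 3.53, 3.07, 1.34 and 0.52. Pou5f1, which marks the same state, had values of 5.42, 6.17, 5.0 and 4.84 and a slope of -0.29 ± 0.29 (adjusted p = 0.509, interval of the slope -0.93 to 0.35). Dppa3, a maternal and germ cell protein, was at 6.12, 6.89, 5.01 and 3.24 (slope -1.05 ± 0.36, adjusted p = 0.0676). Dppa4 was between 5.49 and 6.94, and Lin28a, an RNA-binding protein of early germ cells, between 4.51 and 5.72. In male knockouts 4 of the 16 genes fell, where 2.53% of all genes fell, and the median slope of the list was -0.58. Dppa5a and Dppa3 were among these 4, with knockout slopes of -1.17 and -2.03. In female heterozygotes 12 of the 16 fell, where 3.33% of all genes fell, and the median slope of the list was -1.58.

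None of 23 meiosis genes passed the slope test in male heterozygotes, and their median slope was 0.30. Stra8, the factor that starts meiosis, was at -0.65, 1.94, 1.73 and 2.09 in male heterozygotes, against 5.17, 7.42, 7.55 and 3.97 in female heterozygotes. The male values lay below all female values. Mei1 had the steepest slope of the list, 1.42 ± 0.50 (adjusted p = 0.0741).

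Of 15 measured cell cycle inhibitors and arrest genes, 2 rose and 2 fell, where 10.7% of all genes rose and 5.81% fell. Cdkn1a and Cdkn1c, other inhibitors, had slopes of -0.61 and -0.42 that did not pass the test (adjusted p = 0.0555 and 0.106). Cdkn2c, an inhibitor of the kinases that drive entry into S phase, was at -1.09, -0.84, 1.11 and 1.58 with a slope of 1.0 ± 0.22 (adjusted p = 0.0127), and in male knockouts its slope was 1.11. Cdkn2b, a related inhibitor, was at 0.66, 2.38, 2.84 and 2.46, and its slope of 0.59 was 0.04 without the E12.5 sample. Ccnd1, a cyclin of early G1, was at 0.77, 0.06, -0.52 and -0.86 with a slope of -0.55 ± 0.09 (adjusted p = 0.0023). Ccnd1 also fell in male knockouts and in female heterozygotes, with slopes of -0.51 and -0.41. Ccne1, a cyclin of S phase entry, was at 0.53, -0.59, -0.70 and -0.89, and its slope of -0.44 was -0.15 without the E12.5 sample. The slopes of Cdkn2b and Ccne1 in male knockouts, 0.20 and -0.03, did not pass the test. Of 19 proliferation genes, Top2a, Mcm2, Mcm5 and Pcna fell, none rose, and 15 did not pass the test. The slope of Pcna, -0.31, was -0.18 without the E12.5 sample and no longer passed, and that of Top2a, -0.67, was -1.07 without the E15.5 sample. Mcm2, a helicase subunit of DNA replication, was at 0.97, 0.57, -0.44 and -0.51 (slope -0.55 ± 0.10, adjusted p = 0.00572).

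Of the 12 genes with the steepest rise, 10 were on none of the lists. Sly, a Y-linked gene of germ cells with many near-identical copies that the probe may not separate, was at the detection limit at E12.5 and then at 3.43, 8.70 and 9.39. Its slope was 3.20 ± 0.34 (adjusted p = 0.000401), with a standard error drawn in part from groups held at the limit. Ikzf3, a zinc finger transcription factor known from lymphocytes, was at -0.30, 0.32, 4.5 and 6.99 with a slope of 2.60 ± 0.24 (adjusted p = 0.000401). The rise of Ikzf3 rests on 1 of 3 probes, since the other probes, never at the limit in these samples, had slopes of 0.04 and 0.15. Nlrp4f, a member of a family with germ cell forms, was at the limit at E12.5 and reached 7.35 at E15.5, and in male knockouts it was at the limit on all 4 days. Nxf2, an X-linked RNA export factor of germ cells, was at -0.64, 3.41, 5.84 and 6.33. Rrad, a small GTPase, was at -3.75, 0.42, 3.78 and 3.57, and Clca1, a secreted regulator of chloride channels, at 1.30, 0.42, 5.71 and 7.32. Svs5 and Mybpc2 rose by 2.44 and 2.37 per day, and Gm364 by 2.41. Bcan, a proteoglycan of the extracellular matrix, rose as well (-2.25, 2.26, 4.22 and 5.54), and in male knockouts it was at -0.96, 1.87, 4.82 and 6.29. Without the E12.5 sample the slopes were 1.57 for Rrad, 1.46 for Nxf2, 1.57 for Gm364 and 1.64 for Bcan, and none of these passed the test. Egr4, a transcription factor of the immediate early group, was at 3.42, 7.93, 8.57 and 8.56, and its slope of 1.61 was 0.31 without the E12.5 sample.

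Among the 12 steepest declines were Rhox6 and Rhox9, X-linked homeobox genes of early germ cells. Rhox9 was at 4.32, 0.93, -0.31 and -1.10 and Rhox6 at 4.16, 0.75, -0.38 and -0.88, so that most of their decline came before E13.5. Without the E12.5 sample their slopes were -1.02 and -0.82 and did not pass the test. Both genes fell in male knockouts too, with slopes of -1.50 for Rhox9 and -2.32 for Rhox6. Lhx1, a LIM homeobox transcription factor, was at 5.23, 4.23, 0.36 and -0.31, with a slope of -2.05 ± 0.23 (adjusted p = 0.000564). In male knockouts Lhx1 was between -0.49 and 0.03. Lhx1 is also a marker of the mesonephric duct, and of 12 markers of that tissue it was the one that fell, while Pax8 rose (slope 0.60 ± 0.17) and 10 did not pass the test. Cdh1, an adhesion protein of epithelia and germ cells, was at 3.31, 3.43, 2.42 and 0.52 (slope -0.94 ± 0.29, adjusted p = 0.0502) in male heterozygotes, against -2.14 to -1.48 in male knockouts. Epcam, another epithelial adhesion protein, was between 0.49 and 1.73, Pax2 between -0.58 and 0.34 and Cdh16 between -2.71 and -1.52 in male heterozygotes. The part of mesonephric tissue in the decline of Lhx1 was not tested. Ap3b2, BC048679 and Rnf182 fell by 1.88, 1.91 and 1.63 per day, and their slopes in male knockouts were -1.56, -1.81 and -1.42.

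Of 16 Sertoli and testis-determining factors, 1 rose and 4 fell, and of 24 Sertoli effector genes, 5 rose and 1 fell. The shares over all genes were 10.7% rising and 5.81% falling. Sox9 was at 1.44, 0.73, 0.93 and 0.77 (slope -0.18 ± 0.12, adjusted p = 0.294). Amh, the hormone that removes the female duct, was between 1.12 and 1.44, and Dhh, the hedgehog ligand of Sertoli cells, between 1.03 and 1.45. Sox8, a relative of Sox9, was the single riser among the factors, with values of 1.22, 1.45, 2.27 and 2.69 and a slope of 0.52 ± 0.09 (adjusted p = 0.00304). Fgf9, a growth factor that supports the testis pathway, Sox10, Zfpm2 and Map3k4 fell. Fgf9 was at 2.15, 0.64, -0.41 and -0.24 with a slope of -0.82 ± 0.19 (adjusted p = 0.0135), which was -0.44 without E12.5 and -1.28 without E15.5. Another probe of the same gene had a slope of 0.03 for Map3k4, 0.15 for Sox8 and -0.16 for Sox10.

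Among the effector genes, Hsd17b1, an enzyme that converts steroids, was at 0.55, 2.66, 4.78 and 5.53, and its slope was 1.71 ± 0.20 (adjusted p = 0.000636). Fshr, the receptor of follicle-stimulating hormone, was at -0.11, 1.10, 1.84 and 2.83 with a slope of 0.95 ± 0.16 (adjusted p = 0.00345). Inha, the alpha subunit of inhibin, was at 0.41, 1.45, 2.08 and 2.58 with a slope of 0.71 ± 0.15 (adjusted p = 0.00802). Each of these 3 went up on every step. Ctsl, a protease, and Clu, a secreted chaperone, rose by 0.57 and 0.65 per day, and the slope of Clu was 0.28 without the E12.5 sample. Aard fell by 0.36 per day, and without the E12.5 sample its slope was -0.58 and did not pass the test (adjusted p = 0.0923).

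Of 10 measured genes of fetal Leydig cells, 6 rose and none fell, and the median slope was 0.92. All 6 had their largest step between E12.5 and E13.5. Cyp11a1, the enzyme that starts steroid synthesis from cholesterol, was at 0.92, 4.86, 5.70 and 6.37 with a slope of 1.72 ± 0.38 (adjusted p = 0.0123), and its other probes had slopes of 1.71 and 0.47. Star, the carrier that brings cholesterol into mitochondria, was at 0.69, 3.35, 4.49 and 4.71 with a slope of 1.32 ± 0.28 (adjusted p = 0.0103). Cyp17a1, the enzyme of the androgen branch, was at 0.70, 3.86, 4.24 and 5.04. Hsd3b6, Scarb1, the receptor that takes up cholesterol from lipoproteins, and Thbs2 rose by 1.0, 0.61 and 1.0 per day. After the E12.5 sample was left out, the slope was 0.75 for Cyp11a1, 0.68 for Star, 0.59 for Cyp17a1 and 0.30 for Scarb1, and none of these 4 passed the test. Of the same 10 genes, 6 rose in male knockouts too (3.29% of all genes rose there and 2.53% fell, 5.82% in all), with slopes of 1.71 for Cyp11a1 and 1.42 for Star.

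Of 17 measured genes of cholesterol synthesis and uptake, 9 rose and none fell, and the median slope was 0.48. Lss, the enzyme that closes the sterol rings, was at -0.60, 1.0, 2.36 and 2.37 with a slope of 1.03 ± 0.19 (adjusted p = 0.0046, and 0.213 without the E12.5 sample). Dhcr7, which catalyses the last step of the pathway, was at -0.54, 0.38, 1.68 and 2.15 with a slope of 0.94 ± 0.24 (adjusted p = 0.022). Cyp51, a demethylase of the pathway, was at -0.20, 0.58, 1.68 and 1.86 with a slope of 0.73 ± 0.18 (adjusted p = 0.0191). Sc5d, a desaturase late in the pathway, was at -0.69, 0.11, 1.19 and 1.06. In these genes the rise continued to E14.5 and was small or absent on the last step, except for Dhcr7, which gained 0.47. In male knockouts 13 of the 17 genes rose, with a median slope of 0.75.

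Promoters in the RefSeq table were found for 8 of the 9 rising cholesterol genes, and all 8 held CCAAT, the letters of the NF-Y box, on either strand in at least 1 promoter. All 6 other members with a promoter held it too, so the motif does not set the rising genes apart, and 41.1% of all genes in the table hold it. The promoters of Lss (chr10:76531355-76531654, plus strand), Cyp51 (chr5:4104648-4104947, minus strand) and Sc5d (chr9:42264251-42264550, minus strand) in build GRCm38.p6 are shown 5′ to 3′ with CCAAT or its reverse complement in capitals.
Lss: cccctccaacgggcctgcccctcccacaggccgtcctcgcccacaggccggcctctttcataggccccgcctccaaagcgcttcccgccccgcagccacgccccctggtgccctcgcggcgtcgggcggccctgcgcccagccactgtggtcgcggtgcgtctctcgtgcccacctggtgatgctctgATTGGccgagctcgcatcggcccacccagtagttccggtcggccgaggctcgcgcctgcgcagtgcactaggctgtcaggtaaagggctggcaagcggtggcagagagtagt
Cyp51: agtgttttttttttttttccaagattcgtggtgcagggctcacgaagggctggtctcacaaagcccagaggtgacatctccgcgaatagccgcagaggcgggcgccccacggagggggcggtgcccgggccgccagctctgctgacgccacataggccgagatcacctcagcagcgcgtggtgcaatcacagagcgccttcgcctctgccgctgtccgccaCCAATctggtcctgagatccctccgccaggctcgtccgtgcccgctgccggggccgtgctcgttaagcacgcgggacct
Sc5d: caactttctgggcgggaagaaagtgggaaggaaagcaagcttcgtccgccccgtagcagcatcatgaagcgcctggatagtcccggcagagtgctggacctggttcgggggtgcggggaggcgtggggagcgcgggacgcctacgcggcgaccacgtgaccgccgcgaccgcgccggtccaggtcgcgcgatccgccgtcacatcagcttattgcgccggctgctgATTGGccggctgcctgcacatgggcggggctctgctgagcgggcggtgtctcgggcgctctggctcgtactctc
The box starts 62, 29 and 24 bases before the start site in Lss, Cyp51 and Sc5d.

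**Figure D3:**
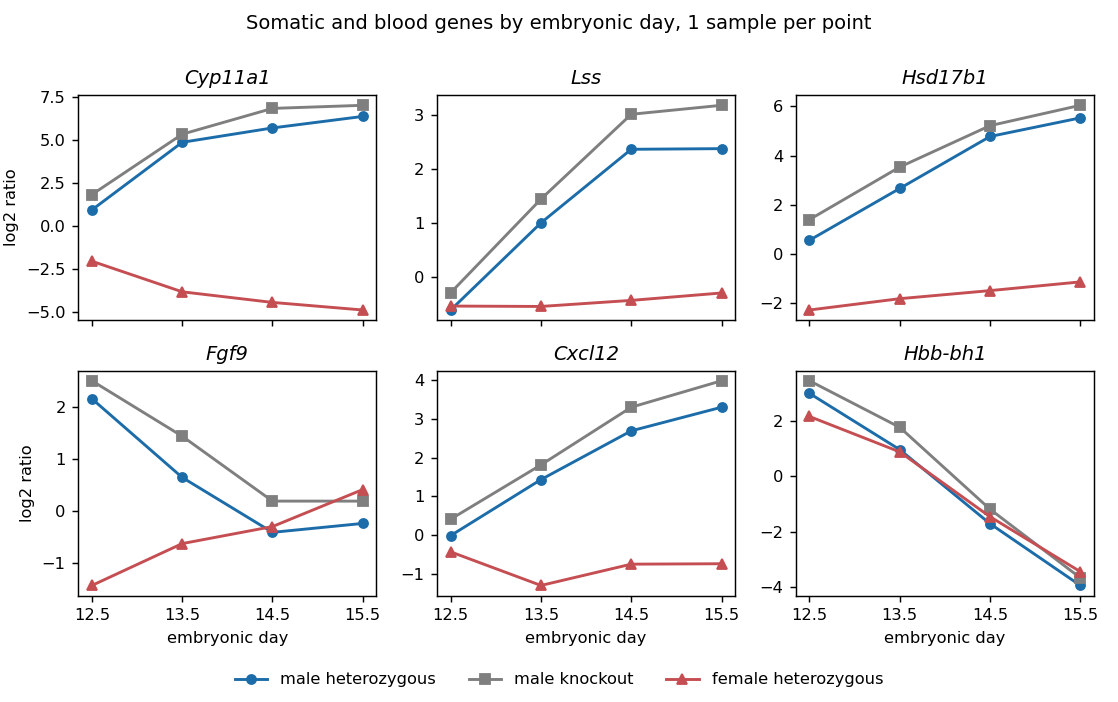
Log2 ratio (vertical axes) by embryonic day (horizontal axes) of 6 somatic and blood genes in male heterozygous (circles), male knockout (squares) and female heterozygous (triangles) gonads, 1 sample per point. Cyp11a1, Lss, Hsd17b1 and Cxcl12 climb in the males and not to that extent in the female heterozygotes.

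Of 13 genes of peritubular and smooth muscle cells, Myh11, Cnn1, Ckm, Tagln, Lmod1 and Actg2 rose and none fell, although the slope of Actg2, 0.46, was 0.30 and did not pass the test without the E15.5 sample. Myh11, the smooth muscle myosin, was at -2.44, -2.31, -0.13 and 0.41 with a slope of 1.07 ± 0.17 (adjusted p = 0.00245), and nearly all of its rise came after E13.5. Cnn1, a regulator of contraction, was at -1.82, -0.35, 0.72 and 1.83 in male heterozygotes, against 1.39, -0.09, 1.12 and 1.41 in male knockouts. Of 20 basement membrane and collagen genes, Lama2, Lamb1, Col1a1 and Col3a1 rose. Lama2, a laminin chain, was at -1.86, -0.68, 1.42 and 1.59 with a slope of 1.24 ± 0.14 (adjusted p = 0.000568). Cxcl12, the chemokine that attracts germ cells, was at -0.01, 1.43, 2.69 and 3.29 with a slope of 1.12 ± 0.16 (adjusted p = 0.00162), and another Cxcl12 probe had a slope of 0.44. Lum, a matrix proteoglycan, and Igf1 rose by 0.72 and 0.34 per day, 2 of 16 interstitial genes.

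Among 20 signals of the TGF-beta family, none rose and Acvr1c, Amhr2 and Bmp7 fell. Acvr1c, a receptor for Nodal and activins, was at 2.80, 0.26, -1.50 and -1.24 with a slope of -1.39 ± 0.31 (adjusted p = 0.0123), which was -0.75 without E12.5 and -2.15 without E15.5. Amhr2, the receptor for the hormone encoded by Amh, was at -0.41, -0.66, -1.75 and -1.81 with a slope of -0.53 ± 0.11 (adjusted p = 0.00918). Of 14 pre-granulosa genes, Foxl2 and Msx1 fell by 0.47 and 0.67 per day and Wnt4 rose by 0.28. Among the remaining lists, Hey2 was the single riser of 17 hedgehog, PDGF and Notch genes and Fas of 14 apoptosis genes, Dlk1 rose and Snrpn fell among 14 imprinted genes, and Pgk1 and Ppia fell among 11 housekeeping genes. None of 14 retinoic acid genes and none of 16 Hox genes passed the test. Hspa1a and Hspa1b, heat shock proteins, rose by 1.01 and 1.28 per day in male heterozygotes, and their slopes in male knockouts were 1.11 and 1.35. Without the E12.5 sample the slopes were 0.37 and 0.80 and did not pass the test.

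Of 14 measured erythroid genes, 4 fell and 1 rose, and the embryonic globins were among the 12 steepest declines of all genes. Hbb-bh1, an embryonic beta globin, was at 2.99, 0.96, -1.71 and -3.94, a decline of 2.35 ± 0.12 per day (adjusted p = 9.72e-06). Hba-x and Hbb-y fell by 2.12 and 2.09 per day. In male knockouts the slopes of these 3 genes were -2.43, -2.52 and -2.25. Of 17 macrophage genes, Aif1, Cd14, F13a1, Mpeg1 and Trem2 rose, by 0.31 to 0.56 per day. Of 18 granulocyte, mast cell and lymphoid genes, Camp and Ltf, proteins of neutrophil granules, rose. Camp was at -2.49, -1.71, 0.03 and 2.81 and Ltf at -1.91, -1.45, -0.25 and 2.85, with the largest step on the last day for both. Without the E15.5 sample the slope of Ltf was 0.83. Of 15 endothelial genes, only Eng, a co-receptor for TGF-beta, passed the test (0.29 ± 0.08, adjusted p = 0.0353).

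**Figure D4:**
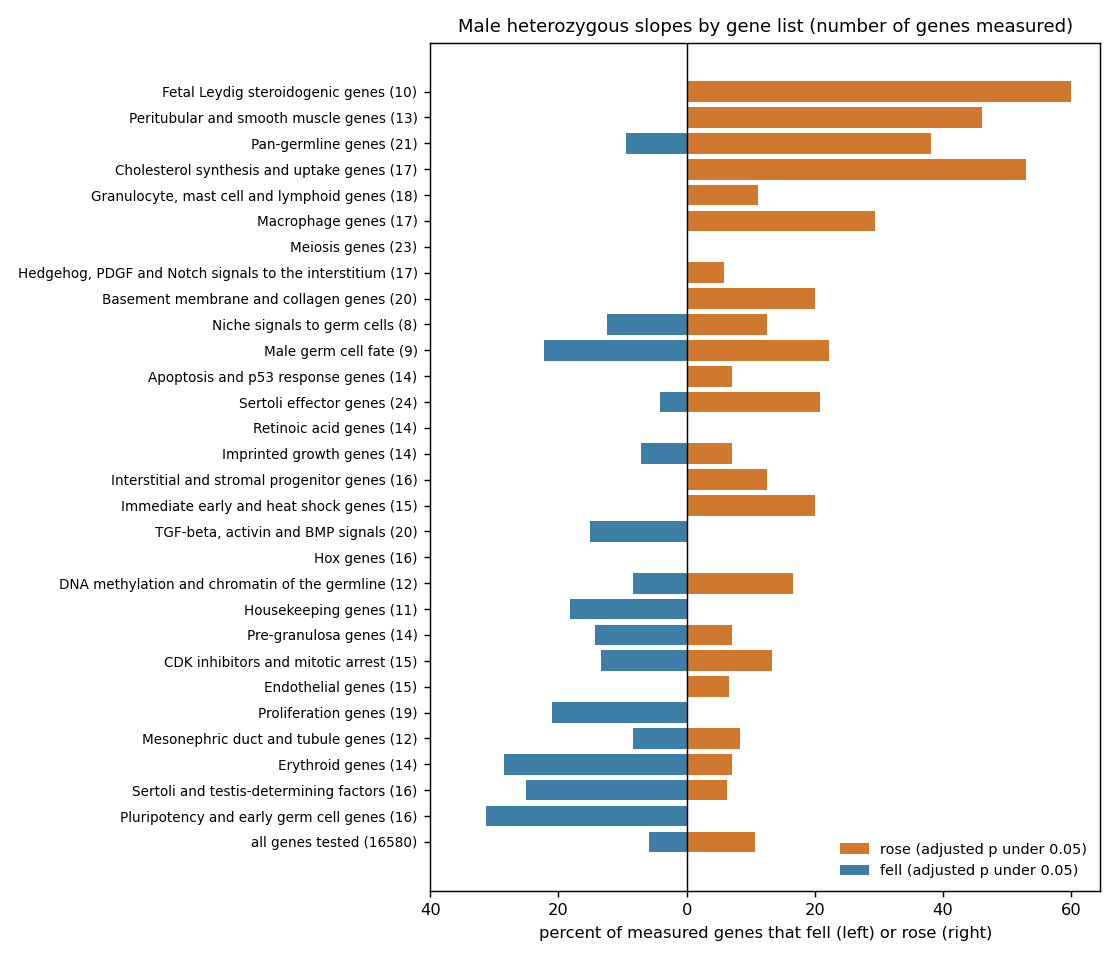
Percent of the measured genes of each list that fell (bars to the left) or rose (bars to the right) in male heterozygous gonads, ordered by median slope, with the number measured in brackets and all genes tested in the lowest row. The lists were compiled with earlier results of these data known, and the share for all genes was 10.7% rising and 5.81% falling.

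Slopes were compared with those of male knockouts to ask where the change over days differed when germ cells were missing. The difference passed the test for 261 genes, of which 251 had the larger slope in male heterozygotes (1.51% of all genes tested) and 10 the smaller slope (0.0603%). The unadjusted p was under 0.05 for 9.9% of genes. Same-day samples of both groups deviated together from their lines, and with the day as a block 681 genes passed, 607 of them with the larger slope in male heterozygotes. Sly, Tdrd9, Dnmt3l, Rrad, Hsd17b2, Nlrp4f, Esx1 and Ikzf3 had the largest positive differences, that of Ikzf3 on 1 of its 3 probes. Sly was at the detection limit on 3 of 4 days in male knockouts. For Dnmt3l the slope was 3.02 in male heterozygotes and -0.03 in male knockouts, a difference of 3.04 ± 0.45 (adjusted p = 0.00933). For Tdrd9 the slope was 2.44 in male heterozygotes and -0.67 in male knockouts, a difference of 3.11 ± 0.41 (adjusted p = 0.00708). Hsd17b2, an enzyme that inactivates sex steroids, was at -3.97, -3.67, -0.90 and 1.76 in male heterozygotes, against -1.63, -3.20, -3.09 and -4.19 in male knockouts. Its values thus went opposite ways, with a difference of 2.75 ± 0.31 (adjusted p = 0.0048). Esx1, an X-linked homeobox gene, was at the limit at E12.5 and reached 5.90 at E15.5 in male heterozygotes, against 1.85 at E12.5 and the limit on the later days in male knockouts. Its slope in female heterozygotes, 2.13, was close to the 2.10 of male heterozygotes.

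By role, 2 of 9 genes of male germ cell fate and 3 of 21 pan-germline genes had a larger slope in male heterozygotes than in male knockouts, and Morc1 and Dnmt3a did so among the methylation genes. No gene of the Leydig, cholesterol, Sertoli effector, smooth muscle, matrix, macrophage or erythroid lists passed the test for a slope difference between the male groups. The same held for the 16 pluripotency and early germ cell genes, the 23 meiosis genes and the 19 proliferation genes. Over all genes 1.57% passed, and at that share lists of this size would hold few or none. These lists are thus not shown to change alike in both groups. The median difference was 0.41 in the smooth muscle list and -0.26 in the cholesterol list, against -0.01 over all genes. The slope difference had an interval of -1.18 to 1.20 for Cyp11a1, -0.48 to 0.76 for Hsd17b1 and -0.30 to 0.47 for Hbb-bh1. Differences within these intervals remain possible for these genes. The 8 largest negative differences were those of Lhx1, Plac9a, Tor3a, Acsbg3, Pmm1, Perm1, Irf1 and Tfrc. For Irf1 another probe had a slope of 0.12 in male heterozygotes, against -0.38 for the probe used. For Lhx1 the slope was -2.05 in male heterozygotes and -0.18 in male knockouts (difference -1.86 ± 0.33, adjusted p = 0.0205). Tfrc, the transferrin receptor, had slopes of -0.60 in male heterozygotes and 0.02 in male knockouts. Plac9a was at 1.42, 2.35, 1.02 and 0.37 in male heterozygotes, against -2.22, -1.05, -0.15 and 1.09 in male knockouts. Without the E12.5 sample the differences were 1.07 for Tdrd1, 1.84 for Rrad and 1.51 for Nxf2, none of which passed the test. Quantile normalization left 26 genes past the test, 20 of them positive, and the fit on male samples alone left 0 by the limma test.

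**Figure D5:**
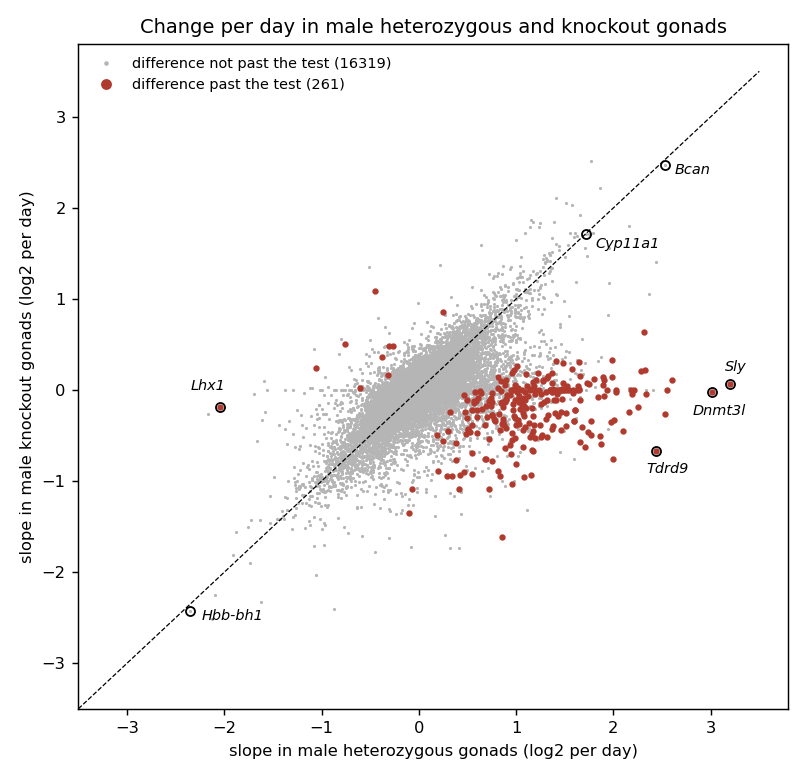
Slope per day in male heterozygous gonads (horizontal axis, log2 per day) against male knockout gonads (vertical axis, log2 per day) for all 16580 genes, with the 261 genes whose slopes differed in red and the line of equal slopes dashed. Dnmt3l, Tdrd9 and Sly lie far to the right at knockout slopes near or below 0, while Cyp11a1, Bcan and Hbb-bh1 lie close to the line.

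The comparison with female heterozygotes asked where testis and ovary with germ cells parted over the same days. Slopes differed for 555 genes, 370 with the larger slope in male heterozygotes (2.23% of all genes tested) and 185 with the smaller (1.12%), and 19.9% of genes had an unadjusted p under 0.05. In female heterozygotes 9.77% of genes had a slope past the test, 6.44% of all genes rising. After quantile normalization 137 of 249 were positive. The largest positive differences were those of Sly, Phlda2, Dnmt3l, Cd2, Hrh1, Cyp11a1, Dbx2 and Nlrp4c. Sly is Y-linked and was at the limit on all 4 days in female heterozygotes, so that its difference follows from its rise in the males and is no comparison of the sexes. Cd2, a surface protein known from T cells, was at 1.02, 2.35, 4.90 and 6.0 in male heterozygotes, against 2.51, 1.09, -0.08 and -0.11 in female heterozygotes, a difference in slope of 2.65 ± 0.27 (adjusted p = 0.00481). Phlda2, an imprinted gene that limits growth, was at 0.08, 0.49, 1.27 and 2.23 in male heterozygotes, against 5.55, 5.07, 1.30 and -1.11 in female heterozygotes. The sexes crossed in both genes. Dbx2, a homeobox gene, rose by 2.29 per day in male heterozygotes and had a slope of -0.30 in female heterozygotes.

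Of 16 pluripotency genes, Pou5f1, Dppa4, Lin28a and Alpl had a larger slope in male than in female heterozygotes, none had a smaller one, and 12 did not pass the test. Pou5f1 was at 5.42, 6.17, 5.0 and 4.84 in male heterozygotes, against 5.50, 4.23, 0.79 and -1.86 in female heterozygotes. The sexes were level at E12.5 and differed on every later day, and the difference in slope was 2.26 ± 0.41 (adjusted p = 0.0165, interval 1.36 to 3.17). Lin28a was at 4.69, 5.72, 5.04 and 4.51 in male heterozygotes, against 6.12, 5.41, 1.95 and -0.59 in female heterozygotes. Nanog and Sox2 declined in male heterozygotes as given above, and their differences in slope, 1.21 ± 0.32 and 0.93 ± 0.45, did not pass the test (adjusted p = 0.0672 and 0.282).

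Among somatic genes, Cyp11a1 had a slope of 1.72 in male heterozygotes and -0.91 in female heterozygotes, a difference of 2.63 ± 0.54 (adjusted p = 0.0262) that was 1.67 and did not pass the test without the E12.5 sample. Fgf9 fell in male heterozygotes and had a slope of 0.58 in female heterozygotes (difference -1.41 ± 0.27, adjusted p = 0.0181). The Fgf9 values of the sexes met at E14.5, at -0.41 in male and -0.30 in female heterozygotes. Foxl2 fell by 0.47 per day in male heterozygotes and had a slope of 0.48 in female heterozygotes (difference -0.94 ± 0.14, adjusted p = 0.00946). Cxcl12 had a slope of 1.12 in male heterozygotes and -0.04 in female heterozygotes (difference 1.15 ± 0.23, adjusted p = 0.0231). The 8 largest negative differences were those of Reg2, Cited4, H2bfm, AI593442, Rnase1, Acsm3, Mia and Ccdc96. Reg2, a secreted lectin, was at the limit in male heterozygotes on 3 days and at 0.45 at E14.5, against the limit at E12.5 and then 3.96, 8.03 and 7.57 in female heterozygotes. Cited4, a transcriptional coactivator, was at 0.35, -1.40, -3.06 and -3.32 in male heterozygotes, against -0.31, 1.11, 1.59 and 1.85 in female heterozygotes.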

How the data were processed

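RNA of whole gonads was hybridised to Agilent arrays with a single Cy3 label, and the signals were extracted with Agilent Feature Extraction 9.5, per the submitters' processing notes. The deposited values are linear ratios of a probe's signal to its typical signal; this was read from the values. The scaling, the centring and the way replicates 1 and 2 were combined are not given in the sources used here. An array has no read depth, and precision depends on the number of arrays.

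Of 41267 probes, 93 control probes were left out. A floor put under weak signals, the limit, was recovered for each sample (tolerance 0.0002 log2, tested on simulated data), and the highest of the 16 limits was used for a probe in every sample. Arrays were scaled to the same 75th percentile over 28373 probes never at the limit, which moved them by -0.26 to 0.33, and log2 was taken. Of the probes, 32664 have 1 gene symbol, 45 several and 8465 none, and probes with several or none were not used. A gene is represented by the probe with the fewest samples at the limit, then the highest mean, and 16580 of 19530 genes above the limit in at least 4 samples were tested.

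Slopes were fitted with limma 3.58.1 in R 4.3.3 (lmFit, eBayes with trend) on all 16 samples, with an intercept and a slope on the day for each of 4 groups (8 residual degrees of freedom), and curvature with a quadratic term (4). Departures from a line count as error, and standard errors share the spread over all groups. A group held at the limit adds almost no spread, so standard errors and p can be too small for genes with such a group. Among these are Sly, Nlrp4f and Gm364, and also Clca1, Otx2, Esx1, Perm1, Reg2 and Fshr, with a group at the limit on most or all days. p-values measure the spread between these samples, which may be technical. Residuals of male heterozygous and male knockout samples of the same day correlated at 0.311 to 0.674, so the day pairs these groups.

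The samples, lists, tests and alternatives were chosen with earlier results of these data known. Of 488 genes on 31 lists, 445 were tested. Genes named are list members and those with the largest slopes (12 each way, above the limit in at least 2 male heterozygous samples), curvatures and slope differences (8 each way) among genes past the threshold. The promoters are from RefSeq (GRCm38.p6). Alternatives covered scaling, limit, filter, probes, variance model, weights, samples and the day as a block.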

Additional observations from a re-analysis of the deposited data

Results flagged for a closer look

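In 3 of 128 genes tested, 1 day of the male heterozygous series stood apart from the other days (Dixon's test). The rate by chance of about 1 in 20 holds for values without order. It does not apply to ordered days of genes named in part for steep slopes. In each of the 3 genes the gap took up most of the range. The share was 0.877 for Egr4 and 0.868 for Stra8, in both of which E12.5 was the low day. It was 1.0 for Reg2, where the other days lay at the detection limit and E14.5 was only 0.08 above it.

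Slopes that differed from those of male knockouts, by limma's test of the difference itself, were flagged for 25 named genes. The slope in male heterozygotes minus that in male knockouts was 1.69 for Cd2, 2.08 for Dbx2, 1.26 for Ddx25, 0.85 for Dnmt3a, 3.04 for Dnmt3l, 2.55 for Esx1, 2.75 for Hsd17b2, 2.49 for Ikzf3, 1.85 for Morc1, 2.55 for Nlrp4f, 2.38 for Nxf2, 1.81 for Phlda2, 1.36 for Piwil2, 2.80 for Rrad, 3.14 for Sly, 1.69 for Tdrd1 and 3.11 for Tdrd9. It was negative in the others, at -1.26 for Acsbg3, -0.74 for Irf1, -1.86 for Lhx1, -0.75 for Perm1, -1.53 for Plac9a, -0.79 for Pmm1, -0.63 for Tfrc and -1.30 for Tor3a.

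For 40 named genes the slope differed from that of female heterozygotes. The slope in male heterozygotes minus that in female heterozygotes was 1.34 for Alpl, 2.65 for Cd2, 2.33 for Clca1, 1.15 for Cxcl12, 2.63 for Cyp11a1, 2.59 for Dbx2, 0.93 for Ddx25, 0.75 for Dnmt3a, 3.02 for Dnmt3l, 2.32 for Dppa4, 0.95 for Fshr, 2.65 for Hrh1, 1.33 for Hsd17b1, 1.28 for Hsd17b2, 1.26 for Hsd3b6, 2.06 for Ikzf3, 2.24 for Lin28a, 1.49 for Morc1, 1.05 for Myh11, 2.57 for Nlrp4c, 2.20 for Nlrp4f, 3.10 for Phlda2, 1.38 for Piwil2, 2.26 for Pou5f1, 3.20 for Sly, 0.62 for Sox8 and 1.57 for Tdrd1. Among the genes with the smaller slope in male heterozygotes it was -1.90 for AI593442, -0.75 for Aard, -1.71 for Acsm3, -0.78 for Amhr2, -1.65 for Ccdc96, -1.96 for Cited4, -1.41 for Fgf9, -0.94 for Foxl2, -1.95 for H2bfm, -1.66 for Mia, -2.56 for Reg2, -1.78 for Rnase1 and -0.52 for Tfrc. Both sets of differences use the same male heterozygous samples. The difference of Hsd17b2 was 2.0 without the E12.5 sample and 0.82 (adjusted p = 0.336) without the E15.5 sample, that of Tdrd1 was 0.95 (adjusted p = 0.278) without E12.5 and 2.41 without E15.5, and that of Cyp11a1 was 1.67 (adjusted p = 0.223) without the E12.5 sample. The differences of Ikzf3 rest on 1 of 3 probes, and Sly was at the limit on all days in female heterozygotes.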

How the results depend on the processing

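The number of genes with a slope, 2735, was 3234 with the arrays as deposited and 2200 after quantile normalization. It was 6519 with array weights, 1082 by a joint F test of slope and curvature, 712 with a step shared by all groups (an alternative chosen after seeing the data) and 0 by limma on the 4 male heterozygous samples alone, where fewer samples estimate the spread. Leaving out 1 male heterozygous sample gave 490 to 2093. For curvature, 33 genes passed with no filter on low values, and 0 to 2 with 1 sample left out. The difference from male knockouts, 261 genes, was 415 as deposited, 26 after quantile normalization, 153 with the stricter filter, 1405 with array weights, 681 with the day as a replicate block, 0 by limma on male samples alone and 175 to 244 with 1 sample left out. The difference from female heterozygotes, 555 genes, was 271 as deposited, 249 after quantile normalization, 360 with the stricter filter, 1025 with the shared step, 0 by limma on heterozygous samples alone and 208 to 459 with 1 sample left out. With the day as a block it was 700. The labels link these 2 groups by the day alone, and their same-day residuals correlated at 0.09 to 0.42. At E15.5 a female heterozygous sample of another day correlated more, at 0.24. Among 107 named genes with a slope, 79 passed after quantile normalization, 33 with the shared step, 32 without E12.5 and 55 without E15.5, and none of the 107 changed sign. The slope of Nanos2, not past the test, was -1.83 without E12.5 and 1.80 without E15.5. Where no value above shows it, the cause was not tested.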
